A study of Rattus norvegicus with 11 samples.

Results

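The period genes Per1, Per2 and Per3, the cryptochrome genes Cry1 and Cry2, and Csnk1d and Csnk1e, which encode casein kinases acting on PER proteins, were described in rat liver. These 7 genes were taken by symbol from 14217 genes with a symbol of their own on the array, and had 16 of its 31099 probe sets. The representative probe set of each gene was chosen by its mean signal over the 11 arrays. The genes themselves were proposed with earlier results of these data known, so their counts are a description and support nothing further. The 11 arrays came from the livers of Wistar rats, 1 array per animal: 8 animals given a high dose of mequindox, a quinoxaline N-oxide antibacterial (animal numbers 2, 3, 4, 5, 6, 8, 10 and 11), and 3 control animals (numbers 1, 2 and 9). All were labelled as week 9 of age except high-dosed animal 8, labelled week 10. The study picked these groups for arrays from a principal component analysis of liver extracts and from clinical chemistry. The dose in mass, the length of treatment, the sex and the hour at which livers were taken are not given in the sources used here. A difference between the groups in that hour therefore cannot be told apart from the dose.

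In the circadian clock of mammals, the factors CLOCK and BMAL1 switch on the Per and Cry genes, whose proteins enter the nucleus together and repress CLOCK and BMAL1. Casein kinases delta and epsilon phosphorylate PER proteins and so set how fast they are degraded. In liver the transcripts of most of these genes rise and fall over the day, and the loop times much of the metabolism of the organ.

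CLOCK and BMAL1, and the factors DBP, TEF, HLF and NFIL3, act on the Per and Cry genes through short boxes upstream. Sequence at annotated starts of these genes is shown for that reason. RefSeq windows of assembly GRCr8, from 250 bases before to 50 after the start that RefSeq uses, were matched by symbol for 5 of the 7 genes. Both strands were searched for the E-box CACGTG, its variant CACGTT, the D-boxes TTATGTAA and TTACGTAA, the cyclic AMP response element TGACGTCA, the REV-ERB and ROR core TAGGTCA and the consensus of the glucocorticoid response element. The windows below are those of the 3 period genes and of Cry2 on their own strand, 5′ to 3′, and capitals mark the matches.
Per1 (chr10:54304126-54304425, plus strand): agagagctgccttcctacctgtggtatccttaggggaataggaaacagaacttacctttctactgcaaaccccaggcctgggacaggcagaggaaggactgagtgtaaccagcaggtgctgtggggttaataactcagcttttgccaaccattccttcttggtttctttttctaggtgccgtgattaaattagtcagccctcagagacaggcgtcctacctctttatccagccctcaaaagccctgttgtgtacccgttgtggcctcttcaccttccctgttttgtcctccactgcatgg
Per2 (chr9:99496944-99497243, minus strand): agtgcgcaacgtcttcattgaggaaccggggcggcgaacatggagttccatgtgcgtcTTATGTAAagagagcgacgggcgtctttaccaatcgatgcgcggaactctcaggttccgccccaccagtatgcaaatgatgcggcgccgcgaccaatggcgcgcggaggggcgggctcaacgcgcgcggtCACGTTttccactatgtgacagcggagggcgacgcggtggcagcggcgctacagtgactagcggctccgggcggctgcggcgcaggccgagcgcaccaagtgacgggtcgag
Per3 (chr5:166777751-166778050, minus strand): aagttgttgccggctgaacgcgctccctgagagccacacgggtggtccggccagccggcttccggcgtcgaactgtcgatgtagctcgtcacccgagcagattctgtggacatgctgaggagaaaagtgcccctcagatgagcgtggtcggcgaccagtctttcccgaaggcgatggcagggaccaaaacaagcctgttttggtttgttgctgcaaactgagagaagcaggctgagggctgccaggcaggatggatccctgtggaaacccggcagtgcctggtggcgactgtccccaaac
Cry2 (chr3:98860388-98860687, minus strand): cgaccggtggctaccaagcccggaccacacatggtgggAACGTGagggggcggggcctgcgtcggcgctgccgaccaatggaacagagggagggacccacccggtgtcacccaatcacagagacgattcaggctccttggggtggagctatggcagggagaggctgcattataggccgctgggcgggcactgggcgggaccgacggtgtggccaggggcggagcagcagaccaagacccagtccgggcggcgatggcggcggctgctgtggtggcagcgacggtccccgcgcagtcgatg

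The Per2 window held a D-box starting at position -192 and the variant CACGTT starting at -62, counted back from the start. The Cry2 window held CACGTT on the opposite strand, its match starting at -212, and no match overlapped another. These letters were not found in the windows of Per1, Per3 and Csnk1e. The start used for Per1 lay 5374 bases inside the outermost end of the gene, against 76 for Per2, 443 for Per3, 25 for Csnk1e and 0 for Cry2. The Per1 window thus lies inside the gene, and its lack of matches says nothing about sequence upstream of the outermost start. Of 33469 windows in the table, CACGTT occurred in 4.83%, CACGTG in 6.42%, TTATGTAA in 0.893%, TGACGTCA in 1.83%, TAGGTCA in 2.63%, TTACGTAA in 0.12% and the glucocorticoid element in 0.0149%.

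Of the 7 genes 1 rose (Per3), 2 fell (Cry1 and Per1) and 4 did not pass in the high-dosed animals (limma, Benjamini-Hochberg adjusted p below 0.05 over all 10714 genes tested). Over all genes 10.6% were called, 7.91% as higher and 2.74% as lower. These counts changed when single controls were left out. Without control 1, 325 genes were called in place of 1141, and without control 2, 759. In both cases 1 of the 7 members, Cry1, was called. A smaller control group also widens the SE. With control 1 left out the log2 fold change of Per3 was 1.43 ± 0.37 and that of Per1 -0.47 ± 0.17 (SE). With all animals they were 1.37 ± 0.30 and -0.47 ± 0.14. Whether the animal itself or the smaller number of controls cost the calls was not tested. For Cry1 and Per3, 2 of the 7 genes, no high-dosed value fell within the range of the controls, against 12.1% of all genes. These 2 were also the members called with a change of at least 2-fold, against 0.373% of all genes. Cry1 stood at rank 8 of all genes by the size of its change and Per3 stood at rank 23, while the remaining members stood between ranks 302 and 10245. Of the 16 probe sets 14 passed the signal filter, and all 7 representatives were among them. Per3 passed only through the high-dosed animals, since its control mean lay under the filter value. RNA came from whole liver, so that fewer cells of a type and less RNA per cell cannot be told apart.

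**Figure D1:**
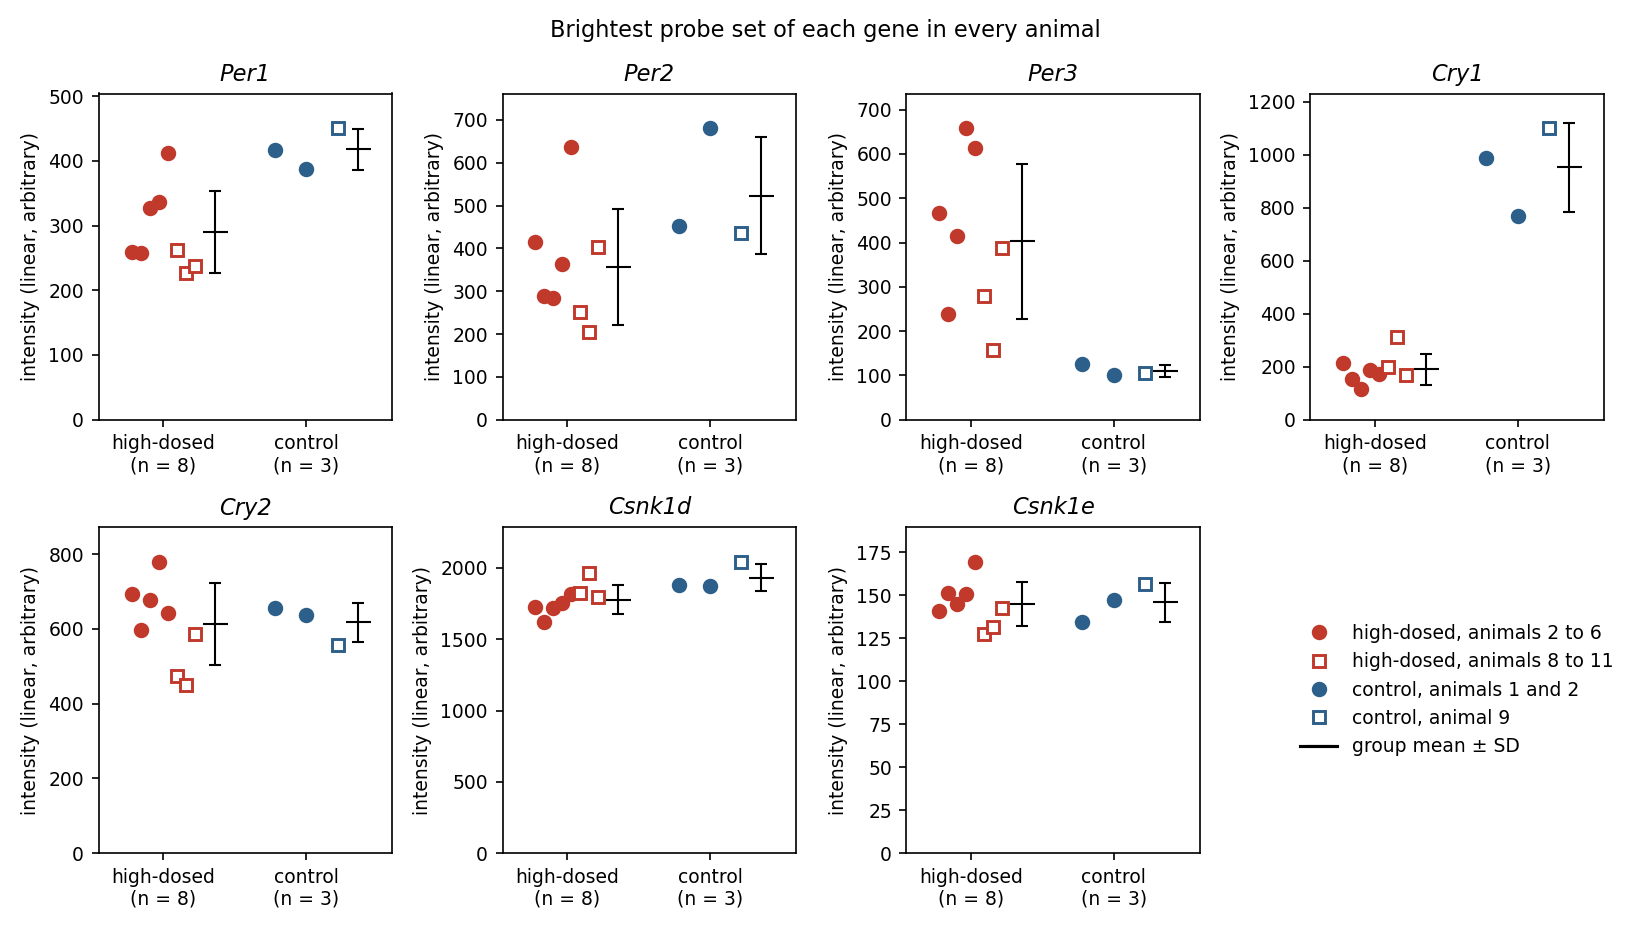
Intensity (linear, arbitrary units) of the brightest probe set of each of the 7 genes, with a point for each animal, high-dosed on the left of each panel and control on the right, and the group mean ± SD in black; open squares are animals numbered 8 and above. For Cry1 the high-dosed animals lie between 116 and 313, all below the controls at 770 to 1099, and for Per3 they lie between 158 and 658, all above the controls at 101 to 125.

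Cry1, whose protein is a strong repressor of CLOCK and BMAL1, fell in every high-dosed animal. Its 1 probe set had intensities from 116 (animal 4) over a median of 181 to 313 (animal 10) in high-dosed animals, against 987, 770 and 1099 in controls 1, 2 and 9. The highest high-dosed animal was thus still far under the lowest control. On the log2(intensity + 55.26) scale the mean was 7.91 ± 0.32 in high-dosed animals and 9.96 ± 0.25 in controls (SD, n = 8 and 3). The log2 fold change was -2.05 ± 0.18 (SE, limma adjusted p = 0.000121), which is 4.15-fold lower in intensity + 55.26. With a pseudocount of 1 the log2 fold change was -2.35. Within animal numbers 6 and below it was -2.06 (5 high-dosed animals against 2 controls, limma adjusted p = 0.00105), and within 8 and above it was -2.07 (3 against 1 control, limma adjusted p = 0.071). In that upper range 3 of 10714 genes were called, so a missing call there says little.

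Cry2, the other cryptochrome and likewise a repressor, did not pass. Its brightest probe set ran from 450 over a median of 620 to 779 in high-dosed animals, against 656, 638 and 557 in controls 1, 2 and 9. The controls lay inside the high-dosed range, with 2 high-dosed animals below all of them and 3 above. The log2 fold change was -0.025 (95% confidence interval -0.32 to 0.27, limma adjusted p = 0.929), and its sign depended on the setting. The second, dimmer Cry2 probe set had 106 to 185 in high-dosed animals and 162 to 205 in controls (-0.25 ± 0.12, SE, limma adjusted p over probe sets = 0.24). No difference between Cry1 and Cry2 in response was tested, but their intervals, -2.44 to -1.66 for Cry1 and the one above for Cry2, did not meet.

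Per3, a period gene with a smaller part in the core loop than its paralogs in mice, rose. Its brightest probe set ran from 158 (animal 10) over a median of 401 to 658 (animal 5) in high-dosed animals, against 125, 101 and 105 in controls 1, 2 and 9. All 8 high-dosed animals stood above all controls, though they spread over a wide range, with a log2 SD of 0.60 against 0.11 in controls. The log2 fold change was 1.37 ± 0.30 (SE, limma adjusted p = 0.0149), a level 2.58-fold higher. The control mean of 7.37 lay just under the filter value of 7.40, so the size of the rise is less certain. With a pseudocount of 1 the value was 1.73. The call was lost without control 1 (1.43, limma adjusted p = 0.0593) or control 2 (1.33, limma adjusted p = 0.052). Within numbers 6 and below the value was 1.61 (limma adjusted p = 0.018), and within 8 and above, with 1 control, it was 0.98. The second Per3 probe set, under the signal filter, read 16.4 to 32.9 in high-dosed animals and 10.0 to 14.6 in controls, also without overlap (0.23 ± 0.061, SE, limma adjusted p without a filter = 0.0564).

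Per1, an early-responding period gene that hormones and cyclic AMP can induce directly, fell by a smaller amount. Its 1 probe set had 227 to 412, with a median of 261, in high-dosed animals, against 417, 387 and 450 in controls 1, 2 and 9. High-dosed animal 6 lay among the controls and the other 7 lay below all of them. The log2 fold change was -0.47 ± 0.14 (SE, limma adjusted p = 0.0465), a level 1.39-fold lower. This call was narrow. Adjusted over all 18625 probe sets it was not made (limma adjusted p = 0.0586), and it was lost in 14 of 23 other settings, among them the removal of any 1 of the 3 controls (highest limma adjusted p = 0.165). Among the 14 was also the upper number range with its single control. Within numbers 6 and below the value was -0.31 (limma adjusted p = 0.27) and within 8 and above, with 1 control, -0.77.

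Per2, which with Per1 carries most of the period function in mice, did not pass. Its brightest probe set spread more widely than that of Per1 within both groups. That Per2 probe set ran from 205 (animal 10) over a median of 326 to 636 (animal 6) in high-dosed animals, against 453, 680 and 437 in controls 1, 2 and 9. As for Per1, 7 high-dosed animals lay below all controls and animal 6 lay among them. The log2 fold change was -0.53 (95% confidence interval -1.05 to -0.0072, limma adjusted p = 0.188), and it was not called in any of 23 other settings. The second Per2 probe set had 266 to 407 in high-dosed animals and 387 to 476 in controls (-0.32 ± 0.13, SE, limma adjusted p over probe sets = 0.153). Its log2 SD was 0.21 in high-dosed animals, under the 0.25 of Per1, and 0.13 in controls, above the 0.096 of Per1.

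Csnk1d and Csnk1e, the kinases of PER proteins, did not pass. The brightest Csnk1d probe set ran from 1624 over a median of 1773 to 1967 in high-dosed animals, against 1877, 1876 and 2042 in controls 1, 2 and 9, with 7 high-dosed animals just below all controls. Its log2 fold change was -0.12 (95% confidence interval -0.25 to 0.013, limma adjusted p = 0.249). The other 4 Csnk1d probe sets went both ways, from -0.16 to 0.074, and overlapped between the groups. The brightest Csnk1e probe set ran from 127 over a median of 144 to 169 in high-dosed animals, against 134, 147 and 157 in controls 1, 2 and 9. Its log2 fold change was -0.0095 (95% confidence interval -0.17 to 0.15, limma adjusted p = 0.951), and its sign turned in 7 of 22 other settings. The other Csnk1e probe sets had -0.0037 and, under the signal filter, 0.041.

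**Figure D2:**
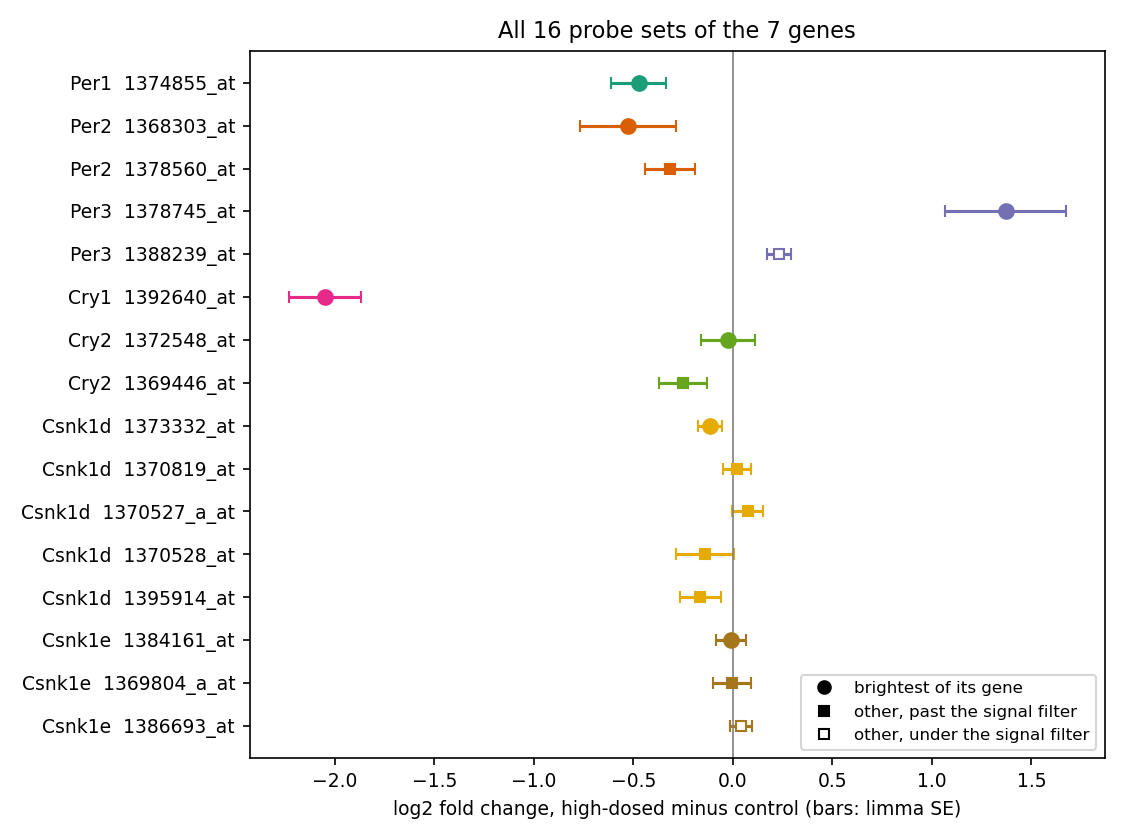
Log2 fold change of high-dosed over control animals for all 16 probe sets (points) with the limma SE (bars); circles are the brightest probe set of a gene, squares its others, and open squares lie under the signal filter. Cry1 at -2.05 and Per3 at 1.37 stand apart, and the probe sets of Csnk1d and Csnk1e lie between -0.16 and 0.074.

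Probe sets of 1 gene shared their direction for Per2, Per3 and Cry2 but not for Csnk1d and Csnk1e. The representative read further from 0 than its dimmer partner for Per2 and nearer to 0 for Cry2. The dim Per3 probe set lay below the added 55.26, which compresses its log2 difference, so its size was not compared. Of the probe sets past the filter, 2 of 14 were called after adjustment over all probe sets, those of Cry1 and Per3, against 6.92% of all probe sets. The same 2 had no overlap between the groups, against 9.85% of all probe sets, as did the dim Per3 probe set under the filter.

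Separation of high-dosed animals by their numbers was about as common among these probe sets as over the whole array. For 4 of the 14 probe sets past the filter, animals 8, 10 and 11 did not overlap with animals 2 to 6, and in all 4 they were the lower ones. These were both Cry2 probe sets, the dimmer Per2 probe set and 1 of Csnk1d, and separation in either direction held for 30.1% of all probe sets. Under the filter, the dimmest Csnk1e probe set separated the other way, with 73.6 to 79.6 in animals 8, 10 and 11, against 59.8 to 71.0 in animals 2 to 6. In the brighter Cry2 probe set animals 8, 10 and 11 had 475, 450 and 587, against 598 to 779 in animals 2 to 6, and control 9 (557) was the lowest control. This separation was lost when the arrays were scaled. With median centring animal 11 had a log2 value of 9.44, above animals 3 (9.31) and 6 (9.31). With quantile normalization it had 9.36, above animals 3 (9.32) and 6 (9.35). The remaining separated probe sets were not checked in this way. The labels do not say what the numbers stand for, or whether both groups were numbered in 1 series. Number 2 occurs in both groups, so placing control 9 with high-dosed animals 8, 10 and 11 is an assumption. The contrast of high-dosed and control animals was not called as different between number ranges for any of the 7 genes. The smallest adjusted p was 0.38, for Csnk1e, and 0 of 7 had an unadjusted p below 0.05 (limma interaction). With 1 control in the upper range this test is weak, and over all genes 2 of 10714 were called (0.0187%) while 14.8% had an unadjusted p below 0.05.

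Among the 8 high-dosed animals the 6 pairs of the period genes and Cry2 had positive r, but 0 of the 10 pairs of Per and Cry genes passed after adjustment over the 10. Before adjustment 3 pairs were under 0.05, by an exact permutation test (two-sided, all 40320 pairings). Per3 and Cry2 had r = 0.853 (adjusted exact p = 0.0768) and rho = 0.857 (adjusted exact p = 0.107). Per2 and Per3 had r = 0.805 (adjusted exact p = 0.0768) and rho = 0.714 (adjusted exact p = 0.192). Per1 and Per3 had r = 0.762 (adjusted exact p = 0.0916) and rho = 0.81 (adjusted exact p = 0.109). Animals 5 and 6 were the highest for Per3, and animal 10 was the lowest for Per1, Per2, Per3 and Cry2. Without the 2 animals farthest from the median of the first gene, r was 0.618 for both of the first 2 pairs and 0.527 for the third. After the mean of each number range was subtracted, a setting added after seeing the data, r was 0.794, 0.741 and 0.613 for these 3 pairs. Within animals 2 to 6 it was 0.736, 0.641 and 0.705, over 5 animals, and 3 animals were too few for a value. The other 3 of the 6 pairs were weaker and less stable. Per1 and Per2 had r = 0.646 (adjusted exact p = 0.209), which was 0.045 without the 2 farthest animals. Per1 and Cry2 had r = 0.592 (adjusted exact p = 0.209), which was 0.129 after the range means were subtracted. Per2 and Cry2 had r = 0.591 (adjusted exact p = 0.209), which was 0.0049 within animals 2 to 6. Cry1 went the other way, highest in animal 10, with r from -0.542 to -0.298 against the other 4 genes. Those values rest on few animals. Without the 2 farthest, r turned positive for 3 of the 4 pairs, while for Per1 and Cry1 it went from -0.461 to -0.778.

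**Figure D3:**
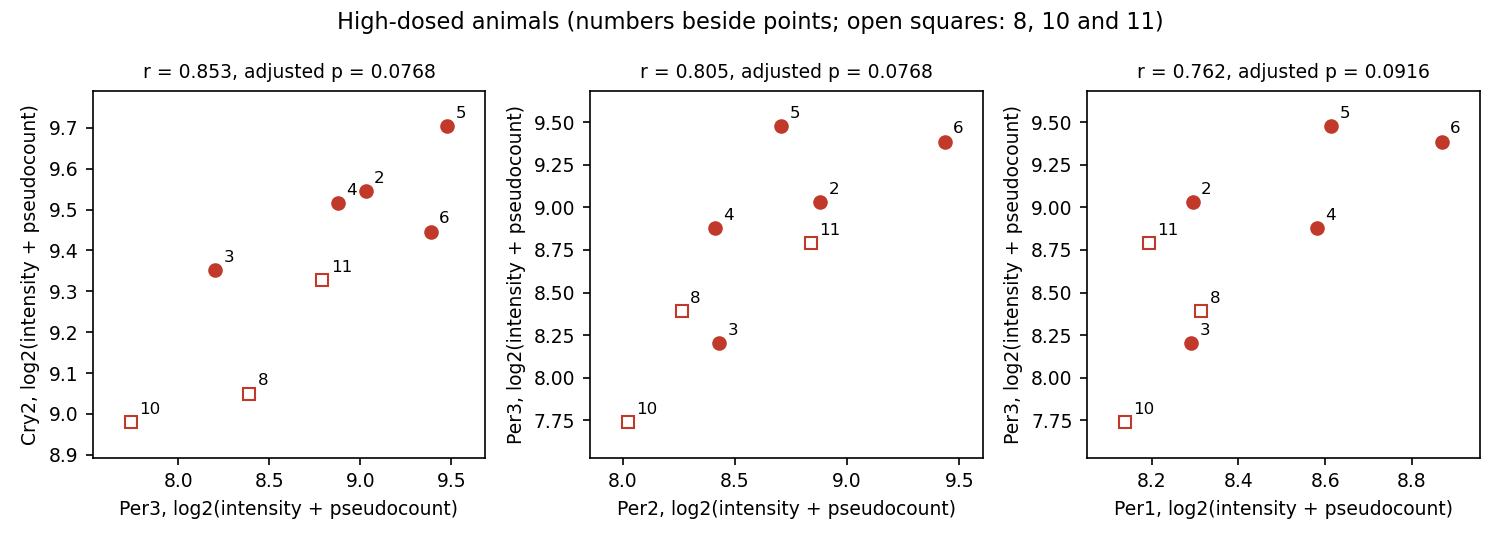
Log2(intensity + 55.26) of 3 pairs of genes in the 8 high-dosed animals, a point for each animal with its number; open squares are animals 8, 10 and 11. Animal 10 is lowest on all axes, and r is 0.853 for Per3 and Cry2, 0.805 for Per2 and Per3, and 0.762 for Per1 and Per3, with adjusted p of 0.0768, 0.0768 and 0.0916 (exact permutation).

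Other genes followed the members from animal to animal. This was measured as Pearson's r of deviations from the mean of the own group over the 11 arrays, and is given as a description. Placeholder symbols, such as those starting with LOC or RGD, were left out, and the means of the number ranges were not subtracted. The genes most like Per3 were Alkbh6 (r = 0.944) and Dbp (r = 0.941), and Dbp encodes a transcription factor that binds D-boxes. For Per1 they were Atxn3 (0.978) and Nufip2 (0.961), for Per2 Tmem109 (0.929) and Gcnt2 (0.916), for Cry1 Hmbox1 (0.939) and Med19 (0.865), and for Cry2 Nagk (0.948) and Izumo4 (0.941).

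Of the transcription factors that act on Per and Cry promoters, 17 of 18 listed were tested, and 4 rose, 3 fell and 10 did not pass, where 10.6% of all genes were called. Without control 1 the number called was 3, Nr1d1, Nr1d2 and Dbp. The list's median log2 fold change was -0.022, against 0.017 over all genes. The REV-ERB repressors Nr1d1 (2.19 ± 0.15) and Nr1d2 (2.48 ± 0.18), which act on Cry1 as well as on Bmal1, rose, as did the D-box factor Dbp (2.81 ± 0.56, SE, limma adjusted p from 2.09e-05 to 0.00861). Nfil3, which represses through the D-box, fell (-0.57 ± 0.12, limma adjusted p = 0.0133). Hlf, also a D-box factor, went the other way from Dbp without passing (-0.53 ± 0.18, limma adjusted p = 0.0832, named after its value was seen). Bmal1 fell (-1.70 ± 0.38, limma adjusted p = 0.0167), and Npas2, a paralog of Clock that can stand in for it, had -1.18 ± 0.38 without passing (limma adjusted p = 0.068, called in 3 of 23 other settings). Clock itself had -0.24 (limma adjusted p = 0.342). The remaining calls, Tef (0.99, not called in 13 of 23 other settings) and Rora (-0.49), were named after their values were seen. For Tef the mean over its probe sets was 0.35 and was not called (limma adjusted p = 0.19).

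The genes listed for enzymes of PER and CRY proteins differed less in size. The lists take in relatives within kinase families, and an action of each listed enzyme on PER or CRY was not tested. Of 23 kinases and phosphatases 3 rose, 0 fell and 20 did not pass (median 0.095). The rises were Csnk2a2, a catalytic subunit of casein kinase 2 (0.50 ± 0.094), Csnk1g2 (0.36 ± 0.068) and Csnk1g3 (0.32 ± 0.080), casein kinases of the gamma type, with limma adjusted p from 0.00644 to 0.0248. For Csnk1g3 the mean over its probe sets was 0.063 and was not called (limma adjusted p = 0.636). Of 11 listed ubiquitin ligase and deubiquitinase genes 9 were tested, and 1 rose, the scaffold Cul1 (0.23 ± 0.068, limma adjusted p = 0.0493, lost in 17 of 23 other settings), with a list median of -0.011. Usp2, a deubiquitinase of clock proteins, had the value farthest from 0 there (-0.87 ± 0.43, limma adjusted p = 0.22, named after its value was seen). Of 17 listed partners of the PER and CRY complex 15 were tested, and beside Bmal1, which is on both lists, the corepressor histone deacetylase Hdac3 rose (0.24 ± 0.060, limma adjusted p = 0.0234), with 13 not passed and a median of 0.073. Over the 4 lists together 12 of 61 genes were called, 9 higher and 3 lower, against 10.6% of all genes. Most of these were promoter-binding factors, with 7 of 17 called. The other lists had 3 of 23, 1 of 9 and 2 of 15 called, with Bmal1 counted among the 2 and the 7. Without control 1 the count over the 4 lists was 3, the same promoter-binding factors as above.

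**Figure D4:**
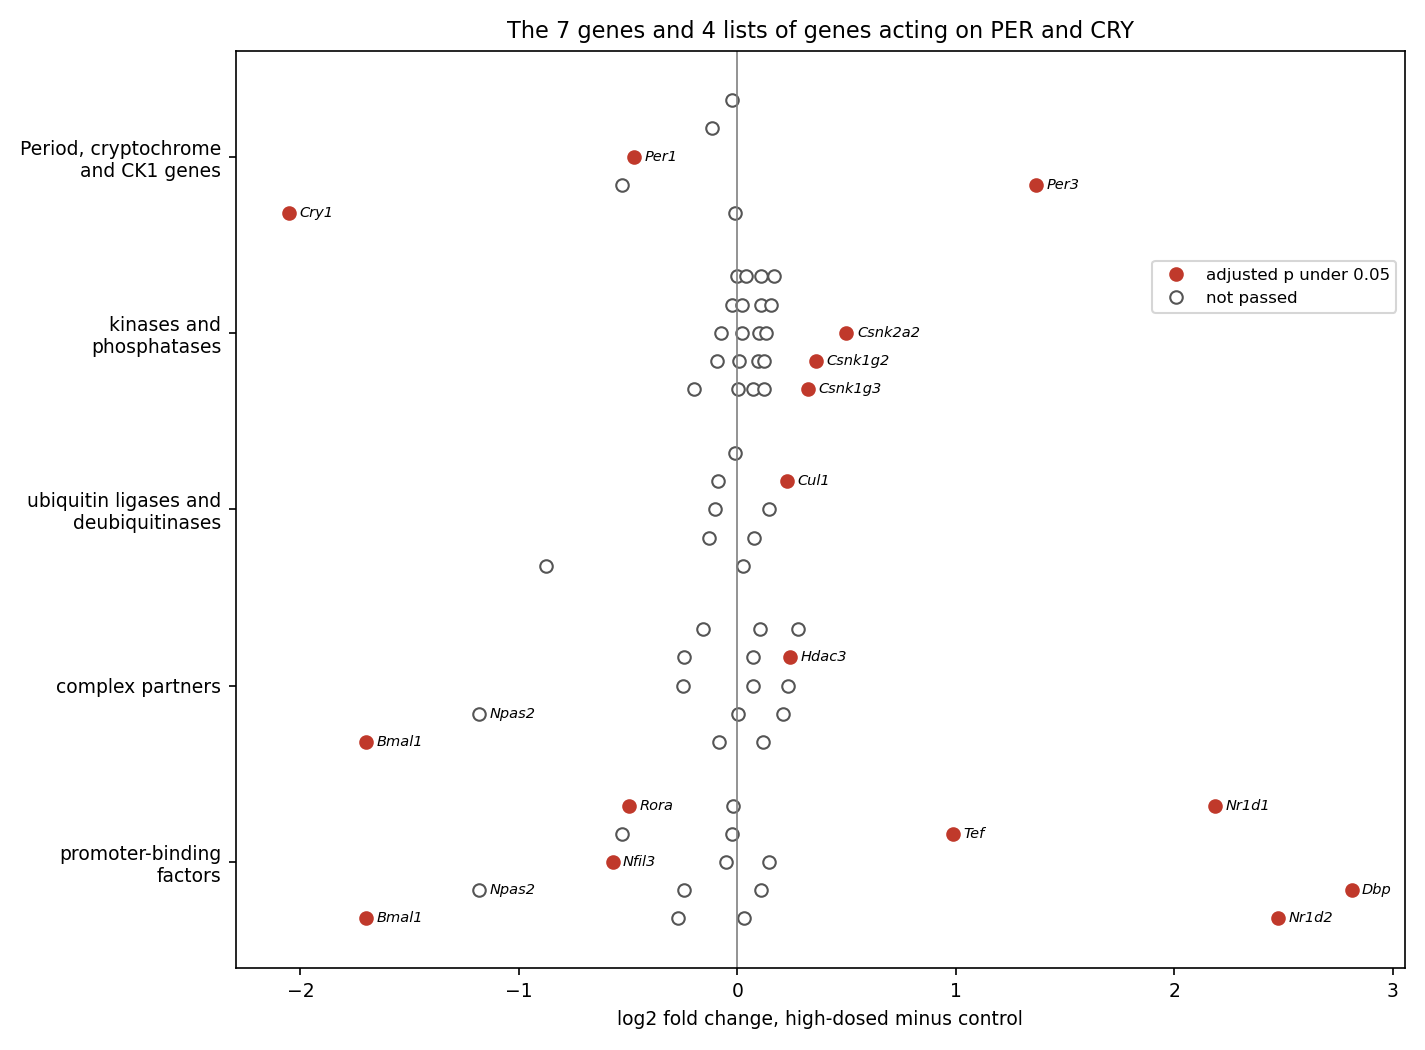
Log2 fold change of high-dosed over control animals (horizontal axis) for the 7 genes and for 4 lists of genes related to PER and CRY. Each gene has a point, spread vertically within its list only for legibility, and filled points passed an adjusted p of 0.05. The widest spread is in the list of promoter-binding factors, from -1.70 for Bmal1 to 2.81 for Dbp, and the kinases and phosphatases lie between -0.20 and 0.50.

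The tissue label was checked on liver markers. All 7 hepatocyte markers with a probe set passed the filter, with mean intensities of 33976 in high-dosed animals and 33948 in controls for Alb, and 25524 and 25038 for Ttr. Of these 7, Apoa1, an apolipoprotein, rose (16725 in high-dosed animals and 13172 in controls) and Asgr1, a receptor subunit of hepatocytes, fell (5277 in high-dosed animals and 5975 in controls). Of other cell types, 3 of 7 endothelial markers rose (Pecam1, Stab2 and Emcn), where over all genes 7.91% were called higher and 2.74% lower. Their summed intensity ran from 11445 to 12582 in high-dosed animals and from 10026 to 11159 in controls. Epcam rose among 2 tested cholangiocyte markers, and the summed intensity of the 5 markers with a probe set ran from 1064 to 1746 in high-dosed animals and from 717 to 871 in controls. For the 6 Kupffer cell markers, of which 0 were called, the sum ran from 16641 to 23148 in high-dosed animals and from 12762 to 17855 in controls. The stellate cell, lymphocyte, neutrophil and erythroid lists had 0 called among 7, 3, 2 and 3 tested markers, and their sums overlapped between the groups. Of the markers of all these lists, 0 stood at the lowest value on all arrays. Their part in the results for the clock genes was not tested.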

How the data were processed

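Liver RNA, extracted with Trizol and made into biotinylated cRNA per the labels' protocols, was measured on 11 Affymetrix arrays. The deposited intensities, 1 per probe set on a linear scale, ran from 1 to 34328, with array medians of 149 to 187. The submitters' processing notes name MAS5, and its version and scaling are not given in the sources used here. No further scaling was applied. Precision is set by the number of animals, with 3 controls.

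Values were taken as log2(intensity + 55.26), the 20th percentile of all values, so fold changes of dim genes are understated. Of 31099 probe sets, 57 Affymetrix controls and all with a mean log2 value under the 40th percentile (7.40) were dropped, which left 18625. The platform annotation gave 20832 probe sets 1 symbol, 436 several and 9831 none, and 20764 of the first matched the RefSeq gene table by Entrez identifier, with 0 symbols changed. The brightest probe set stood for each of 10714 genes. The group contrast was fitted across all genes with limma 3.58.1 (R 4.3.3; moderated variance with an intensity trend, two-sided, Benjamini-Hochberg), tested on simulated data, and other probe sets were taken from the fit over all probe sets. Named were all members, up to 4 called genes per list and those beyond 2-fold, and the 2 genes most like each Per and Cry gene. The members, lists, tests and alternatives were chosen with earlier results of these data known. Alternatives changed the scaling, pseudocount, filter, variance trend and probe set rule, used the animal number as a block or as separate ranges, or left arrays out.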

Additional observations from a re-analysis of the deposited data

Results flagged for a closer look

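Among 16 probe sets of the 7 genes and 13 other genes named from the lists, 2 had a high-dosed animal that stood apart from the other 7, and chance alone flags about 1 in 20. No probe set of the 7 genes did. For Cul1 animal 8 was the highest, with a gap to the next animal of 0.646 of the whole range of the group. For Nr1d2 animal 10 was the lowest, with a gap of 0.543 of the range. The limit for 8 animals was 0.526.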

How the results depend on the processing

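Under 23 other settings Cry1 kept its call in 22 (-2.35 to -1.95), Per3 in 20 and Per1 in 9, and Per2 and Csnk1d were called in 0. The losses for Cry1, Per3 and Per1 include animal numbers 8 and above, where 1 control entered and a missing call says little. Cry2 and Csnk1e, near 0 and never called, turned sign. With median centring they had 0.013 and 0.029, within animal numbers 6 and below 0.056 and 0.076, and without high-dosed animals 8, 10 and 11 0.122 and 0.038. With quantile normalization Csnk1e had 0.031. With single animals left out Cry2 ran from -0.091 to 0.030 and Csnk1e from -0.052 to 0.029. The cause was not tested. Of the 7 genes 0 were called within animal numbers 8 and above, and 1 to 3 with single animals left out, the 1 being Cry1 without control 1 or control 2. Of the list genes 0 were called within 8 and above, and 3 to 12 with single animals left out.

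Over all genes 612 were called within 6 and below, 3 within 8 and above, where fewer animals entered, and 716 without animals 8, 10 and 11. With single animals left out the count ran from 325 (without control 1) to 1406, and it was 759 without control 2. Quantile normalization gave 589 higher and 333 lower, against 847 and 294 in the values reported, and median centring gave 703 and 147. The counts of interactions and of correlated pairs stayed at 0 in the 4 settings run. No paired analysis was possible because the labels give no pairing, and the number 2 found in both groups stands for different animals.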
